A study of Mus musculus with 12 samples.

Results

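The hepatic acute-phase proteins are plasma proteins that the liver makes in larger or smaller amounts during infection, injury and inflammation. The genes described were Lcn2, Saa4, Orm1, Orm2, Hp, Hpx, Crp, Cp, Itih3 and Itih4, matched to probes by symbol or synonym, with the probe of highest mean intensity over the 12 arrays standing for each gene. Of these 10 genes, 9 were measured among 17742 genes in all, and no probe was named for Orm2, which is not analysed here.

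Liver RNA was compared in 3 groups of mice, all aged 8 weeks per the labels. The first received STZ and MENS, the second STZ alone, and the third was an untreated control. STZ is streptozotocin, which destroys the pancreatic beta cells and makes mice diabetic. MENS, a device treatment that the labels do not spell out, ran for 6 weeks with 5 sessions a week of 1 h each. Each group had 2 liver samples, called liver 1 and liver 2 here after the sample numbers in the labels, and each was measured on 2 single-colour oligonucleotide arrays. The sources used here do not give the strain, the sex, the STZ dose or the blood glucose. Nothing in the labels ties a sample to 1 animal, so a p-value here reflects only how far these samples lie apart, which may be technical.

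In the acute-phase response, interleukin-6 and related cytokines act on hepatocytes through the gp130 receptor chain and the transcription factor STAT3, while interleukin-1 and tumour necrosis factor act through NF-kB. C/EBP factors and glucocorticoids add to both. Positive acute-phase proteins, among them serum amyloid A, orosomucoid and haptoglobin, increase in plasma, and negative ones, such as albumin and transthyretin, decrease.

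Levels are log2(intensity + 50), and each liver's value is the mean of its 2 arrays. Differences were tested with limma in 1 fit of the 6 livers, and each p was adjusted over all 17742 genes (Benjamini-Hochberg, threshold 0.05). They understate the change of dim genes. For 2 livers against 2, the smallest exact permutation p is 0.333, so no such test was run.

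The livers carried the RNA of hepatocytes: all 8 measured hepatocyte markers, Alb, Apoa1, Ttr, Apob, Cps1, Tdo2, Hpd and Fabp1, had a mean intensity of at least 92719. Liver 1 of the STZ+MENS group stood apart for 3 of them. In that liver Apob had 14.21, Cps1 14.67 and Tdo2 15.30, against 15.84, 16.15 and 16.63 in liver 2 of the same group, and the STZ and control livers lay at 16.85 to 17.43, 16.42 to 17.09 and 16.28 to 17.36. These 3 were named after their values were seen. For Apob and Cps1, liver 2 of the group also lay below every STZ and control liver. The other markers did not share this. In liver 1 of the STZ+MENS group, Hpd (17.60) and Fabp1 (18.61) were at their highest and Alb (18.85) at its lowest. Apoa1 (19.00) and Ttr (18.98) lay within the range of the other livers. The deposited values have nearly the same distribution on every array, so a very bright probe is held close to the value that its rank fixes, and large changes of the most abundant transcripts can appear small. Among 26423 probes, 5 of the 9 genes were within the brightest 500 on every array.

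None of the 9 acute-phase genes passed the adjusted threshold between any pair of groups. The background was as sparse. Over all genes, 0.00564% passed for STZ against control, 0.0% for STZ+MENS against STZ and 0.00564% for STZ+MENS against control. The spread between livers of a group was wide for Lcn2, Orm1 and Hpx and narrow for Hp, Crp and Itih3. The median pooled SD between livers of a group was 0.25 over the 9 genes and 0.17 over all genes, and 5 of the 9 lay above that all-gene median. Only 0.338% of all genes had a larger SD between livers than Lcn2, and 3.55% had a larger one than Orm1.

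**Figure D1:**
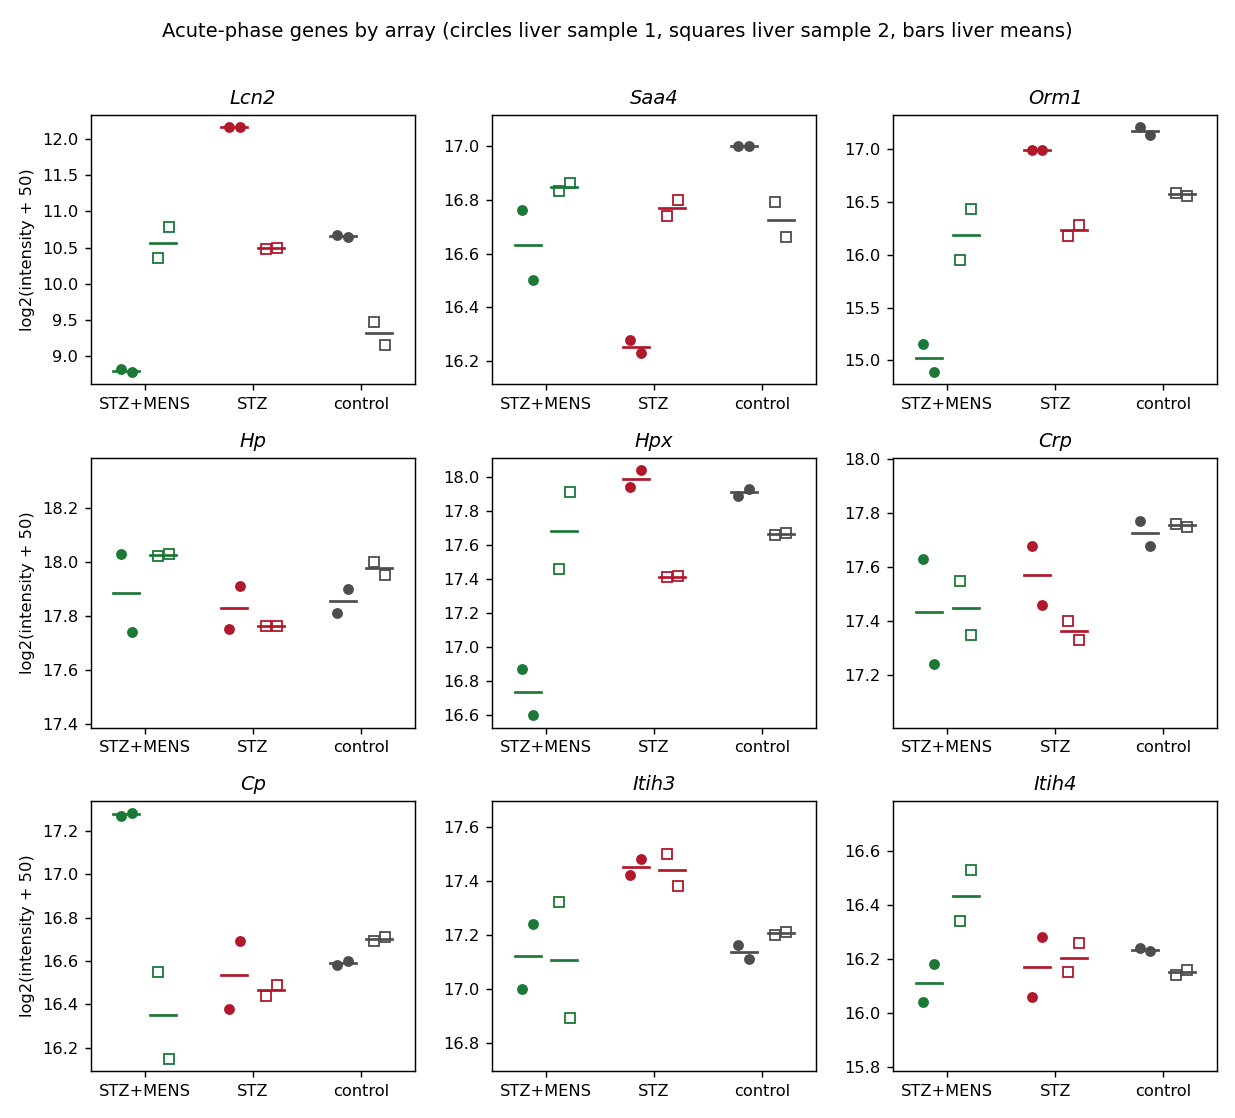
Level of each measured acute-phase gene, log2(intensity + 50), on every array of the STZ+MENS, STZ and control livers, with circles for liver sample 1, squares for liver sample 2 and bars for the mean of the 2 arrays of a liver. Vertical axes differ between panels. The liver means of Lcn2 range from 8.80 in STZ+MENS liver 1 to 12.17 in STZ liver 1, while those of Hp stay between 17.76 and 18.02.

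Promoter windows from 250 bases before to 50 bases after the annotated start were taken from RefSeq (GRCm38.p6). Windows were found for 8 of the 10 genes, 9 windows in all, and none was found for Orm1 and Hp. Motifs were searched on both strands as the letters TTGCNNAA for a C/EBP site, TTCNNNGAA for a STAT site, GGG and CC with 5 bases of any kind between them for an NF-kB site and TATAAA for a TATA box. A match is only a description of the letters and was not tested as a site. TTGCNNAA was present in 5 of the 8 genes (Lcn2, Saa4, Orm2, Hpx and Cp) and in 10.8% of the 32851 windows of the table. TTCNNNGAA was present in Itih4 alone among the 8 and in 8.3% of all windows. The NF-kB letters were present in 6 of the 8 and in 50.8% of all windows, and TATAAA in 5 of the 8 and in 13.6%. Neither the glucocorticoid response element (AGAACA and TGTTC with 3 bases between them) nor the HNF1 site (GTTAAT and ATTAAC with 1 base between them) was found in any of them, and 0.0487% and 0.00913% of all windows held these longer strings.

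The windows of 4 genes are shown because Lcn2 and Hpx varied most among the genes with a window, Crp gave different values at its 2 probes and Itih3 had the smallest unadjusted p for STZ+MENS against STZ. Each runs 5′ to 3′ along the gene, and capitals mark every motif match, with overlapping matches running together.
Lcn2, chr2:32387690-32387989, minus strand: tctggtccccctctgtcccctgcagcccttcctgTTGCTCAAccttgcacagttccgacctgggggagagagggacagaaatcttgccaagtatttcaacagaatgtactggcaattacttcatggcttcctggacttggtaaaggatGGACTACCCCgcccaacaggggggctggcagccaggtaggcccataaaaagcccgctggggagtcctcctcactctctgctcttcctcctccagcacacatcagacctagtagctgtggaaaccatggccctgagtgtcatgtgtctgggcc
Hpx, chr7:105600067-105600366, minus strand: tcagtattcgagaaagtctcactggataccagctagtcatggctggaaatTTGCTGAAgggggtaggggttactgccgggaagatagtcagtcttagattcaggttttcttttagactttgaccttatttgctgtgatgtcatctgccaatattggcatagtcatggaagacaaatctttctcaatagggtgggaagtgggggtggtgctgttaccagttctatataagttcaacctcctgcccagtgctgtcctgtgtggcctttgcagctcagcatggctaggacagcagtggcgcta
Crp, chr1:172697806-172698105, plus strand: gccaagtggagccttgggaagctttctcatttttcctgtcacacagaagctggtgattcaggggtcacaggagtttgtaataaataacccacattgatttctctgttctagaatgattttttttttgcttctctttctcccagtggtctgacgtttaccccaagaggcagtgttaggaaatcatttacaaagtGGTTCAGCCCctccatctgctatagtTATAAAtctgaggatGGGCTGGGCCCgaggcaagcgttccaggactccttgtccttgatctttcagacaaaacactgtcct
Itih3, chr14:30923538-30923837, minus strand: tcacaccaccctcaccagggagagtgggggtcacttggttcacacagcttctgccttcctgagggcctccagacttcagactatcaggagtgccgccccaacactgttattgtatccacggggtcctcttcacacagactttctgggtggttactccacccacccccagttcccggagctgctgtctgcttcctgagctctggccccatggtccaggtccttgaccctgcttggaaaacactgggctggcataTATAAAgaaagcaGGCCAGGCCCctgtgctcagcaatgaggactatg
Counted from the annotated start, with negative positions before it, the C/EBP letters of Lcn2 lay at -216 to -209 and its NF-kB letters at -102 to -93. The single match in Hpx was the C/EBP string at -200 to -193. Crp held 3 NF-kB matches, an overlapping pair of them at -16 to -6, and a TATA box at -31 to -26. In Itih3 both matches lay after the annotated start, the TATA letters at bases 4 to 9 and the NF-kB letters at bases 17 to 26.

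Lcn2 encodes lipocalin 2, which binds bacterial siderophores and withholds iron from microbes. Its level was 8.80 and 10.57 in STZ+MENS livers, 12.17 and 10.49 in STZ livers and 10.66 and 9.32 in control livers. STZ liver 1 was the highest and STZ+MENS liver 1 the lowest, a 10.3-fold span, and each pair of groups overlapped. The 2 arrays of a liver differed by 0.01 to 0.44, so the span lay between livers and not between arrays. STZ against control gave a log2 difference of 1.34 ± 0.80 (SE, n = 2 liver samples each), 2.53-fold higher, with a limma adjusted p of 0.457 and a 95% interval of -0.61 to 3.29. STZ+MENS against STZ gave -1.65 ± 0.80, 3.13-fold lower, with an adjusted p of 0.257 and an interval of -3.59 to 0.30. STZ+MENS against control gave -0.31 ± 0.80 (adjusted p = 0.882). The first difference was 0.50 without STZ liver 1 and 2.18 without STZ liver 2, 2.01 without control liver 1 and 0.67 without control liver 2. The second was -0.76 without STZ+MENS liver 1, -2.53 without STZ+MENS liver 2, -0.81 without STZ liver 1 and -2.48 without STZ liver 2.

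Neutrophils and adipocytes also make lipocalin 2. The summed intensity of the 12 measured neutrophil markers was 9605 and 9692 in STZ+MENS livers, 9119 and 8732 in STZ livers and 8905 and 10161 in control livers. The defining marker S100a8 was near background at 6.72 to 7.06 in all livers, and S100a9 lay at 8.21 to 9.17. At p under 0.05 before adjustment, 0 of these 12 markers were higher and 1 was lower in STZ against control, where 8.48% of all genes were higher and 8.49% lower. The 7 adipocyte markers summed to 10822 and 8165 in STZ+MENS livers, 15453 and 11047 in STZ livers and 6588 and 6556 in control livers. The sum was highest in STZ liver 1, as was Lcn2, but the markers did not share that order. Fabp4, the brightest with a mean intensity of 5511, was highest in that liver, as was Cidec. Lep, near background with a mean intensity of 99.2, was at 7.34 there and at 7.30 to 7.31 in STZ liver 2 and the control livers. Cfd was about as dim, at 107. Adipoq and Retn were highest in STZ+MENS liver 1, where Lcn2 was lowest, Cfd in STZ liver 2 and Plin1 in control liver 2. Of the 7, 3 were higher at unadjusted p under 0.05 in STZ against control, where 8.48% of all genes were, and none passed adjustment. The part of these cells in the Lcn2 values was not tested, and in bulk tissue a change in the number of cells of a type cannot be told apart from a change in RNA per cell.

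Orm1 encodes orosomucoid 1, or alpha-1-acid glycoprotein, a carrier of basic drugs and a modulator of immune cells. Its level was 15.02 and 16.19 in STZ+MENS livers, 16.99 and 16.23 in STZ livers and 17.17 and 16.57 in control livers. Both STZ+MENS livers lay below all others, though liver 2 of that group was close to STZ liver 2, and the highest and lowest livers differed 4.44-fold. The difference of STZ+MENS from control was -1.27 ± 0.45, 2.41-fold lower, with an unadjusted p of 0.0289, a limma adjusted p of 0.224 and a 95% interval of -2.36 to -0.18. It was -0.69 without STZ+MENS liver 1 and -1.85 without STZ+MENS liver 2. The 12 arrays were also fitted separately with the liver as a random block, a fit where 1336 genes passed. There the same difference had a limma adjusted p that rounds to 0.05 and lay just past the threshold. That fit gave all genes a single correlation of 0.48 between the arrays of a liver. Orm1 had an SD of 0.16 between arrays and 0.62 between livers, so its arrays counted partly as replicates and its error was understated. Its difference between STZ+MENS and STZ was -1.0 ± 0.45 (limma adjusted p = 0.224), and it was -0.42 without STZ+MENS liver 1, -1.59 without STZ+MENS liver 2 and -0.63 without STZ liver 1. Without MENS, the STZ livers differed from control by -0.26 ± 0.45 (limma adjusted p = 0.812). Orm1 has close copies in the mouse, Orm2 among them, and whether its probe reads only Orm1 was not tested.

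Hp encodes haptoglobin, which binds free haemoglobin, and Hpx encodes hemopexin, which binds free heme. Hp was 17.88 and 18.02 in STZ+MENS livers, 17.83 and 17.76 in STZ livers and 17.85 and 17.98 in control livers, a span of 1.2-fold. It was higher in both STZ+MENS than in both STZ livers by a difference of 0.16 ± 0.14 (limma adjusted p = 0.527), about the gap between arrays of a liver, which reached 0.29. Hpx was 16.74 and 17.69 in STZ+MENS livers, 17.99 and 17.41 in STZ livers and 17.91 and 17.66 in control livers. The 5 other livers lay within 17.41 to 17.99, and STZ+MENS liver 1 was alone below them. The Hpx difference of STZ+MENS from STZ was -0.49 ± 0.35 (limma adjusted p = 0.422), and -0.02 without that liver. It was -0.96 without STZ+MENS liver 2, -0.20 without STZ liver 1 and -0.78 without STZ liver 2. The difference from control was -0.58 ± 0.35 (limma adjusted p = 0.44), and -0.10 without STZ+MENS liver 1 and -1.05 without STZ+MENS liver 2. Between STZ and control, Hpx differed by -0.09 ± 0.35 (limma adjusted p = 0.929).

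The genes of proteins that take up or process these ligands gave no called difference, where at most 0.00564% of all genes did in any comparison. Cd163, the macrophage receptor for haptoglobin with haemoglobin, was 12.01 and 12.25 in STZ+MENS livers, 12.14 and 11.69 in STZ livers and 11.69 and 11.80 in control livers. Lrp1, the hepatic receptor for hemopexin with heme, differed by -0.35 ± 0.18 between STZ+MENS and STZ (limma adjusted p = 0.268). Alas2, an erythroid marker of heme synthesis, was 16.65 and 13.11 in STZ+MENS livers, 14.99 and 15.75 in STZ livers and 16.25 and 16.53 in control livers. Alas2 was highest in the liver where Hpx was lowest, but nearly as high in control liver 2, where Hpx was 17.66. Only 2 of 7 listed erythroid markers were measured, Alas2 and Slc4a1. Slc4a1 was 10.11 and 7.81 in STZ+MENS livers, 7.79 and 7.74 in STZ livers and 10.50 and 9.58 in control livers. It was highest in control liver 1, where Hpx was 17.91. The part of either marker in the Hpx values was not tested.

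Cp encodes ceruloplasmin, the copper-carrying ferroxidase of plasma. Its brightest probe was 17.28 and 16.35 in STZ+MENS livers, 16.53 and 16.46 in STZ livers and 16.59 and 16.70 in control livers. The STZ+MENS livers held both the highest and the lowest value, and the STZ livers lay just below the control livers. The difference of STZ+MENS from STZ was 0.31 ± 0.29 (limma adjusted p = 0.544). Without STZ+MENS liver 2 this difference was 0.78 with an adjusted p of 0.0491 in limma, a fit in which 1759 genes passed and in which liver 1 alone stood for its group. Without STZ+MENS liver 1 it was -0.15. The difference from control was 0.17 ± 0.29 (limma adjusted p = 0.817), and it was -0.29 without STZ+MENS liver 1 and 0.63 without STZ+MENS liver 2. For STZ against control it was -0.15 ± 0.29 (limma adjusted p = 0.848). The dimmer Cp probe, at 9.24 to 9.74, gave 0.28 ± 0.16 for STZ against control (limma adjusted p = 0.46 over 20377 probes), the opposite sign.

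Crp encodes C-reactive protein, a pentraxin that binds phosphocholine and is a major acute-phase protein in humans and a modest one in mice. At the brightest probe it was 17.44 and 17.45 in STZ+MENS livers, 17.57 and 17.36 in STZ livers and 17.73 and 17.75 in control livers. Both groups that received STZ lay below both control livers, by -0.30 ± 0.14 for STZ+MENS (limma adjusted p = 0.329) and by -0.28 ± 0.14 for STZ (limma adjusted p = 0.388). Between STZ+MENS and STZ, Crp differed by -0.02 ± 0.14, with a 95% interval of -0.37 to 0.32. The STZ difference was -0.17 without STZ liver 2.

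The dimmer Crp probe had a wider spread, and its use on its own was chosen after the data were seen. It gave 12.10 and 12.76 in STZ+MENS livers, 14.09 and 13.13 in STZ livers and 13.92 and 13.50 in control livers. Both STZ+MENS livers lay below all others, and the arrays of a liver differed by 0.01 to 0.18. At this probe STZ+MENS differed from STZ by -1.18 ± 0.38, with an unadjusted p of 0.0196 and a limma adjusted p of 0.132 over 20377 probes. From control it differed by -1.27 ± 0.38 (limma adjusted p = 0.178), and STZ differed from control by -0.10 ± 0.38 (limma adjusted p = 0.923). The brightest probe ranked 109 to 195 among the probes of an array and the dimmer one 2004 to 6180. Which transcript parts the 2 probes cover is not given in the sources used here.

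**Figure D2:**
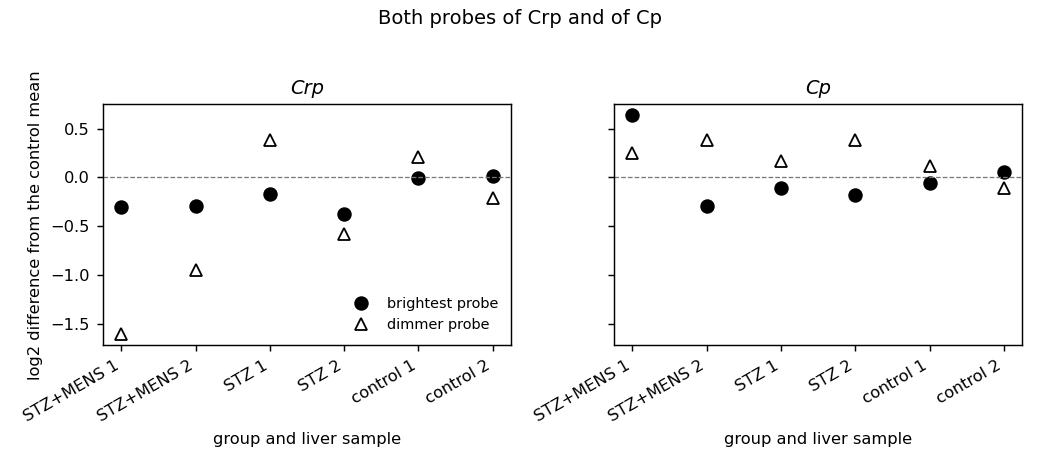
Difference of each STZ+MENS, STZ and control liver from the control mean, on the log2(intensity + 50) scale, for the brightest probe (filled circles) and the dimmer probe (open triangles) of Crp and Cp. For Crp the dimmer probe reads 12.10 and 12.76 in the STZ+MENS livers, below its control livers, while the brightest probe reads 17.44 and 17.45 there, nearer to its controls.

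Saa4 encodes the serum amyloid A that is present in plasma without inflammation and travels on high-density lipoprotein. It was 16.63 and 16.85 in STZ+MENS livers, 16.25 and 16.77 in STZ livers and 17.00 and 16.73 in control livers. STZ liver 1 was the lowest, and the other 5 livers lay within 16.63 to 17.00. Saa4 in STZ livers differed from control by -0.35 ± 0.22 (limma adjusted p = 0.469), and by -0.10 without STZ liver 1. Without STZ liver 2 it was -0.61, and without control liver 1 it was -0.22. Against STZ, the difference of STZ+MENS livers was 0.23 ± 0.22 (limma adjusted p = 0.556) and that from control -0.13 ± 0.22 (limma adjusted p = 0.812). Of the inducible forms, Saa1 and Saa2 were not measured here, and Saa3 was near background at 6.50 to 7.07.

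Itih3 and Itih4 encode heavy chains of the inter-alpha-trypsin inhibitor family. Itih3 chains are joined to hyaluronan in the matrix, and Itih4 circulates without bikunin, the protease-inhibiting light chain. Itih3 was 17.12 and 17.11 in STZ+MENS livers, 17.45 and 17.44 in STZ livers and 17.14 and 17.21 in control livers. The livers of a group lay closer together than for any other measured acute-phase gene, with a pooled SD of 0.03, and both STZ livers lay above the other 4. The pooled SD between the 2 arrays of a liver was larger, at 0.15, so the livers of a group lay closer together than their own arrays did. The 2 arrays of a liver differed by up to 0.44, and the 4 STZ arrays, at 17.38 to 17.50, lay above every other array. Itih3 in STZ+MENS livers differed from STZ by -0.33 ± 0.13, 1.26-fold lower, with an unadjusted p of 0.0421, a limma adjusted p of 0.18 and a 95% interval of -0.65 to -0.02. The STZ livers differed from control by 0.27 ± 0.13, 1.21-fold higher (limma adjusted p = 0.36). Over the livers left out in turn, the difference of STZ+MENS from STZ stayed between -0.34 and -0.33, with adjusted p of 0.244 to 0.474. STZ+MENS differed from control by -0.06 ± 0.13 (limma adjusted p = 0.851).

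Itih4 was 16.11 and 16.44 in STZ+MENS livers, 16.17 and 16.20 in STZ livers and 16.23 and 16.15 in control livers. The STZ and control livers lay within 0.08 of each other, and STZ+MENS liver 2 was the highest. Its 3 differences were at most 0.09 in size, each with an SE of 0.16. The related chains Itih1 and Itih2 differed by 0.41 ± 0.14 (limma adjusted p = 0.138) and 0.15 ± 0.17 (limma adjusted p = 0.632) between STZ+MENS and STZ. Itih1 was 17.64 and 17.56 in STZ+MENS livers, 17.13 and 17.26 in STZ livers and 17.52 and 17.46 in control livers, with both STZ livers lowest, the reverse order of Itih3.

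**Figure D3:**
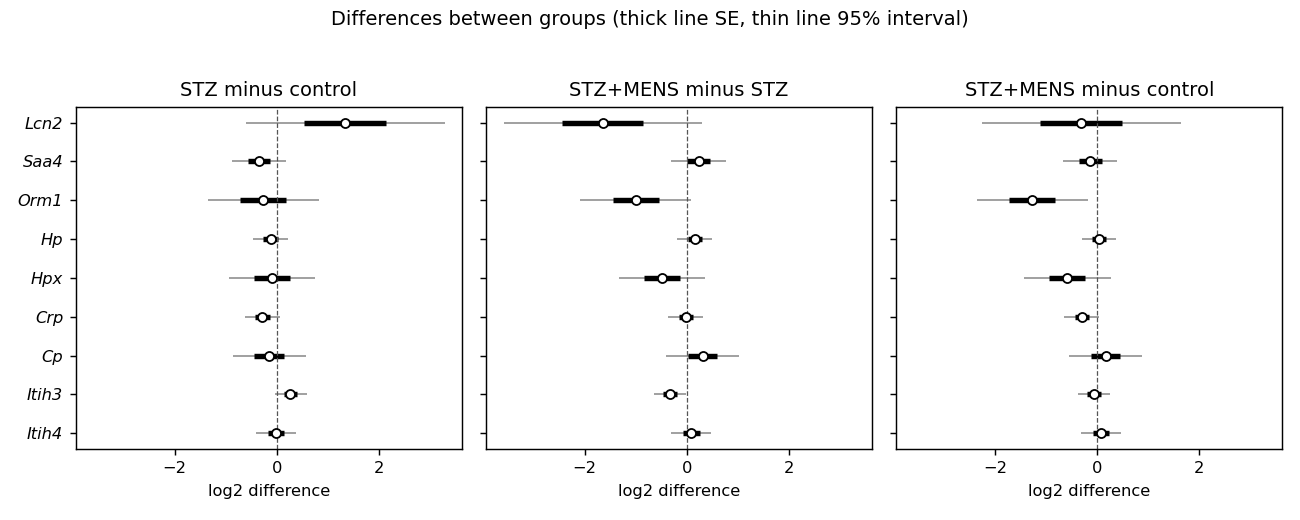
Log2 differences of the 9 acute-phase genes for STZ minus control, STZ+MENS minus STZ and STZ+MENS minus control, with the limma SE (thick line) and the 95% interval (thin line). The interval lies wholly below 0 for Itih3 in STZ+MENS minus STZ (-0.65 to -0.02) and for Orm1 in STZ+MENS minus control (-2.36 to -0.18), and no gene passed after adjustment over all genes.

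Counted together, 0 of the 9 genes had an unadjusted p under 0.05 for STZ against control, where 17.0% of all genes did, 8.48% higher and 8.49% lower. For STZ+MENS against STZ the count was 1 lower, Itih3, where 25.4% of all genes passed, 12.6% higher and 12.8% lower. Between STZ+MENS and control it was again 1 lower, Orm1, where 18.0% of all genes passed, 8.82% higher and 9.18% lower. The median log2 difference of the 9 was -0.12, -0.02 and -0.13 in these comparisons, against -0.02, 0.06 and 0.02 over all genes. For STZ against control the groups did not overlap for Itih3, which was higher, and for Hp, Crp and Cp, which were lower, 4 of 9 where 52.1% of all genes did not overlap. For STZ+MENS against STZ they did not overlap for Hp, which was higher, and for Orm1 and Itih3, which were lower, where the share over all genes was 57.9%. Between STZ+MENS and control they did not overlap for Orm1, Crp and Itih3, all lower, where the share was 48.6%. These comparisons share livers, so their values are given side by side and none supports another. By the F test over the 3 groups, none of the 9 passed adjustment, where 0.00564% of all genes did, and the lowest adjusted p was 0.22 for Orm1.

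Seen by liver, STZ+MENS liver 1 held the lowest value of Lcn2, Orm1, Hpx and Itih4 and the highest of Cp. It held the lowest value for 20.8% of all genes and the highest for 25.2%. STZ liver 1 held the highest value of Lcn2, Hpx and Itih3, as it did for 18.9% of all genes. Lcn2 and Hpx were highest in STZ liver 1 and lowest in STZ+MENS liver 1, a pattern that 8.98% of all genes had. Among the 32 other positive acute-phase genes measured, Serpina3n, Serpina3k, A2m, Ftl1 and Fth1 had it.

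**Figure D4:**
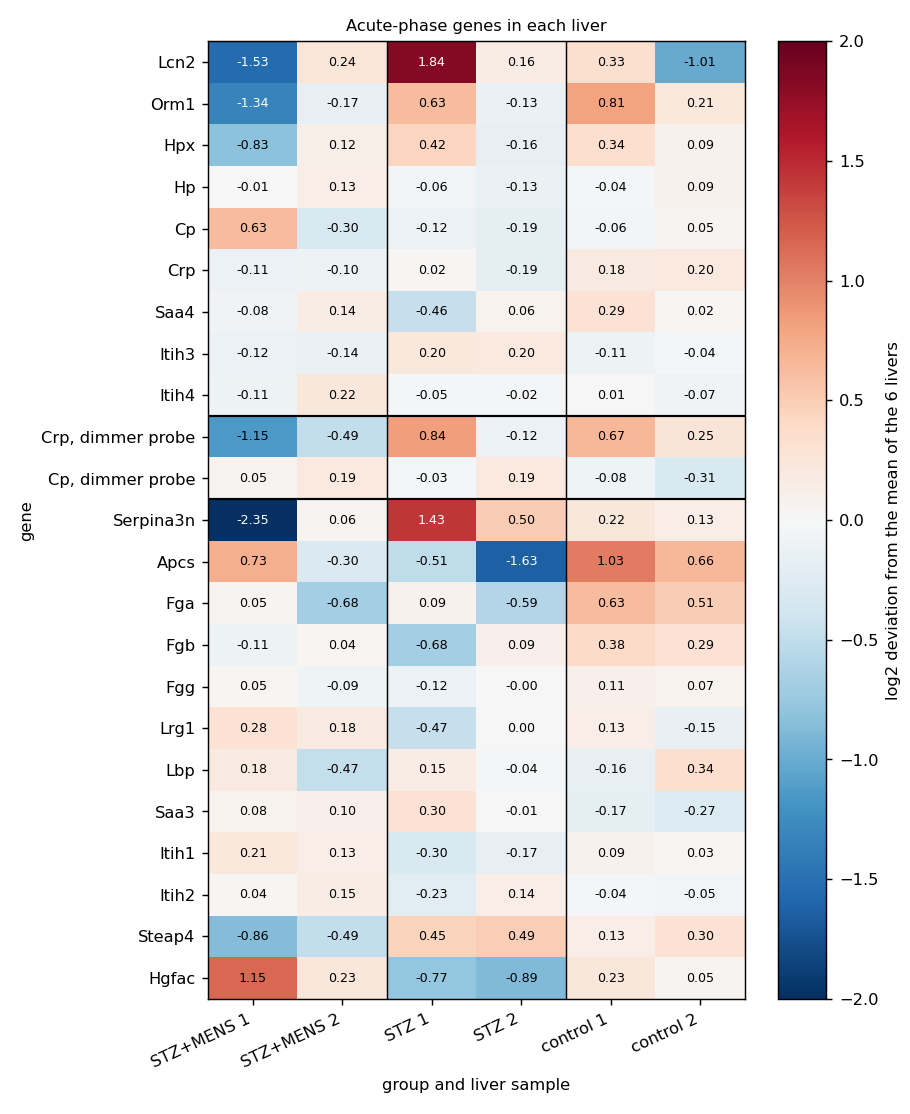
Deviation of each gene from its mean over the 6 livers, in log2 units, with columns for the STZ+MENS, STZ and control livers. The top block holds the 9 acute-phase genes, the middle block the dimmer probes of Crp and Cp and the lower block other positive acute-phase genes. Lcn2 and Serpina3n are lowest in STZ+MENS liver 1 and highest in STZ liver 1.

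Of the other positive acute-phase genes, 3 were higher and 4 lower at unadjusted p under 0.05 for STZ against control, 4 and 4 for STZ+MENS against STZ, and 0 of 32 passed adjustment in any comparison. Over all genes, 8.48% were higher and 8.49% lower in the first comparison and 12.6% and 12.8% in the second. Apcs encodes serum amyloid P, the main inducible pentraxin of the mouse. It was 16.06 and 15.03 in STZ+MENS livers, 14.82 and 13.70 in STZ livers and 16.36 and 15.99 in control livers. Both STZ livers lay below all others. Apcs differed by -1.91 ± 0.46 between STZ and control (limma adjusted p = 0.154) and by 1.29 ± 0.46 between STZ+MENS and STZ (limma adjusted p = 0.158). Serpina3n, a protease inhibitor of the antichymotrypsin family, was 11.09 and 13.50 in STZ+MENS livers, 14.87 and 13.94 in STZ livers and 13.66 and 13.57 in control livers. Its order over the livers resembled that of Lcn2 at both ends, and STZ+MENS differed from STZ by -2.11 ± 0.75 (limma adjusted p = 0.154).

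The fibrinogen chains, which polymerise in clotting, were lowest in livers that had received STZ. Fga was 17.76 and 17.03 in STZ+MENS livers, 17.80 and 17.12 in STZ livers and 18.34 and 18.22 in control livers. Every STZ-treated liver lay below both control livers for Fga, Fgb and Fgg. STZ differed from control by -0.82 ± 0.31 for Fga (limma adjusted p = 0.269), by -0.63 ± 0.26 for Fgb (limma adjusted p = 0.296) and by -0.15 ± 0.14 for Fgg (limma adjusted p = 0.628). Fgb in STZ liver 1 rested on 2 arrays that differed by 1.70. Lbp, which presents bacterial lipopolysaccharide, and Lrg1, a secreted leucine-rich glycoprotein, differed by -0.20 ± 0.27 (limma adjusted p = 0.685) and 0.47 ± 0.20 (limma adjusted p = 0.213) between STZ+MENS and STZ. Hamp was not measured here.

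A further 4 genes of this list were named for a small unadjusted p. Mt2, a metallothionein that binds zinc and copper, was 15.23 and 15.48 in STZ+MENS livers, 15.29 and 15.62 in STZ livers and 10.22 and 11.57 in control livers. STZ differed from control by 4.56 ± 0.42 for Mt2 (limma adjusted p = 0.0654) and by 2.01 ± 0.23 for Mt1 (limma adjusted p = 0.0674). Neither passed. Steap4, a metalloreductase, differed by -1.14 ± 0.17 between STZ+MENS and STZ (limma adjusted p = 0.0595), and Hgfac, the activating protease of hepatocyte growth factor, by 1.52 ± 0.30 (limma adjusted p = 0.0663).

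Negative acute-phase proteins gave 0 higher and 1 lower of 17 at unadjusted p under 0.05 for STZ against control, and 1 higher and 2 lower for STZ+MENS against STZ, with none past adjustment. The shares over all genes were 8.48% and 8.49%, then 12.6% and 12.8%. The medians of the 17 were -0.05 and 0.0, against -0.02 and 0.06 over all genes. Alb, which encodes albumin, lay at 18.85 to 19.00 in all 6 livers. Ttr, the carrier of thyroxine and retinol-binding protein, lay at 18.72 to 19.04. They ranked 3 to 10 and 2 to 15 among the probes of an array, where the value is nearly fixed by rank. Fetub, a protease inhibitor, differed by -0.39 ± 0.16 between STZ and control (limma adjusted p = 0.286) and by 0.52 ± 0.16 between STZ+MENS and STZ (limma adjusted p = 0.116). Serpina6, the corticosteroid carrier of plasma, differed by 0.34 ± 0.15 (limma adjusted p = 0.32) and by -0.51 ± 0.15 (limma adjusted p = 0.11). Its 2 arrays of a liver differed by up to 0.75. Between STZ+MENS and STZ, Pon1, an esterase on high-density lipoprotein, differed by -0.59 ± 0.18 (limma adjusted p = 0.117). Apoa1, the main protein of that lipoprotein, differed by -0.31 ± 0.13 between STZ and control (limma adjusted p = 0.308).

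The RNA of cytokines, receptors, transcription factors and inhibitors of the acute-phase response was read from the same arrays. Cytokine levels and the activity of STAT3 or NF-kB were not measured. Of 11 cytokine ligands measured, 3 were lower and 0 higher at unadjusted p under 0.05 for STZ against control, and 3 were higher and 0 lower for STZ+MENS against STZ. Over all genes, 8.49% were lower in the first comparison and 12.6% higher in the second. None passed adjustment. Il1b, which encodes interleukin-1 beta, was 13.05 and 12.57 in STZ+MENS livers, 11.92 and 12.08 in STZ livers and 13.05 and 13.15 in control livers. Both STZ livers lay below all others, and STZ differed from control by -1.10 ± 0.20 (limma adjusted p = 0.11). STZ+MENS differed from STZ by 0.81 ± 0.20 for Il1b (limma adjusted p = 0.0835), by 0.53 ± 0.18 for Osm (limma adjusted p = 0.138) and by 0.63 ± 0.18 for Lif (limma adjusted p = 0.107). Osm and Lif encode oncostatin M and leukemia inhibitory factor, cytokines of the interleukin-6 family. Il6 itself had a mean intensity of 73.0 over the arrays, near background.

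Among 20 receptor and signalling genes, 4 were higher and 2 lower at unadjusted p under 0.05 for STZ against control, and 1 higher and 6 lower for STZ+MENS against STZ. These 6 of 20 and 7 of 20 stand beside 17.0% and 25.4% of all genes. None passed adjustment. Stat3 was 11.34 and 11.16 in STZ+MENS livers, 11.51 and 11.56 in STZ livers and 10.57 and 10.80 in control livers. All STZ-treated livers lay above both control livers, and STZ differed from control by 0.85 ± 0.15 (limma adjusted p = 0.11). Il6ra, the interleukin-6 binding chain, differed from control by 0.80 ± 0.30 in STZ livers (limma adjusted p = 0.254) and by 1.17 ± 0.30 in STZ+MENS livers (limma adjusted p = 0.142). The shared chain Il6st differed by 0.14 ± 0.18 between STZ and control (limma adjusted p = 0.745). Osmr, the oncostatin M receptor chain, was 11.34 and 11.10 in STZ+MENS livers, 10.30 and 10.36 in STZ livers and 11.20 and 11.36 in control livers. Both STZ livers were below the other 4, with differences of -0.95 ± 0.15 from control (limma adjusted p = 0.101) and of 0.89 ± 0.15 for STZ+MENS from STZ (limma adjusted p = 0.0595). Tnfrsf1b, a tumour necrosis factor receptor, lay the other way. It differed by 1.06 ± 0.19 between STZ and control (limma adjusted p = 0.113) and by -1.32 ± 0.19 between STZ+MENS and STZ (limma adjusted p = 0.0595). For the interleukin-1 receptor, STZ+MENS differed from STZ by -0.47 ± 0.23 in Il1r1 (limma adjusted p = 0.252) and by -1.62 ± 0.44 in the accessory chain Il1rap (limma adjusted p = 0.0976), whose STZ+MENS livers were at 11.66 and 13.06.

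Of 18 transcription factor genes, 2 were higher and 1 lower at unadjusted p under 0.05 for STZ against control, and 1 higher and 2 lower for STZ+MENS against STZ, where the shares of all genes in either direction were 17.0% and 25.4%. None passed adjustment. Cebpb, a C/EBP factor of the response, was 15.49 and 15.41 in STZ+MENS livers, 15.51 and 15.68 in STZ livers and 14.76 and 15.44 in control livers, with control liver 1 alone below the others. Between STZ and control the difference was 0.50 ± 0.24 for Cebpb (limma adjusted p = 0.362), 0.0 ± 0.20 for Cebpd (limma adjusted p = 0.999) and -0.45 ± 0.21 for Cebpa (limma adjusted p = 0.349). Nr3c1, the glucocorticoid receptor, was 11.45 and 11.96 in STZ+MENS livers, 12.40 and 12.39 in STZ livers and 12.66 and 12.40 in control livers. Both STZ+MENS livers lay below the other 4, with a difference of -0.69 ± 0.21 from STZ (limma adjusted p = 0.118). Foxa1, a liver forkhead factor, differed by -0.77 ± 0.14 between STZ and control (limma adjusted p = 0.112), and Foxa3, its relative, by 0.69 ± 0.14 between STZ+MENS and STZ (limma adjusted p = 0.068). Creb3l3, a membrane-bound factor known to act on Crp and Apcs, differed by 0.40 ± 0.15 between STZ and control (limma adjusted p = 0.255) and by -0.47 ± 0.15 between STZ+MENS and STZ (limma adjusted p = 0.123). Nfkbiz, an inducible partner of NF-kB, differed by 0.50 ± 0.19 between STZ and control (limma adjusted p = 0.262). The 2 arrays of a liver differed by up to 1.21 for Foxa3, 1.11 for Cebpd, 0.87 for Nfkbiz and 0.68 for Creb3l3.

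The inhibitors gave 2 higher and 3 lower of 13 for STZ against control and 0 higher and 2 lower for STZ+MENS against STZ at the same unadjusted threshold, against 17.0% and 25.4% of all genes in either direction, with none past adjustment. Nfkbia, which holds NF-kB in the cytoplasm and is itself an NF-kB target, was 16.10 and 16.35 in STZ+MENS livers, 16.13 and 16.14 in STZ livers and 14.87 and 15.16 in control livers. Every STZ-treated liver lay above both control livers, with differences of 1.21 ± 0.17 for STZ+MENS (limma adjusted p = 0.111) and 1.12 ± 0.17 for STZ (limma adjusted p = 0.0935). Socs3, the feedback inhibitor of gp130 signalling, was 12.32 and 11.38 in STZ+MENS livers, 11.60 and 12.60 in STZ livers and 11.87 ± 0.17 on average in control livers (SD, n = 2), with all groups overlapping. Cish, a feedback inhibitor of STAT5 signalling, differed by -2.33 ± 0.75 between STZ and control (limma adjusted p = 0.212). STZ+MENS differed from STZ by -1.25 ± 0.26 for Dusp1, a kinase phosphatase (limma adjusted p = 0.068). The same difference was -0.69 ± 0.15 for Ptpn11, a tyrosine phosphatase (limma adjusted p = 0.0695), and 0.27 ± 0.14 for Nfkbib, a relative of Nfkbia (limma adjusted p = 0.292). For Ptpn11 the 2 arrays of a liver differed by up to 0.84.

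**Figure D5:**
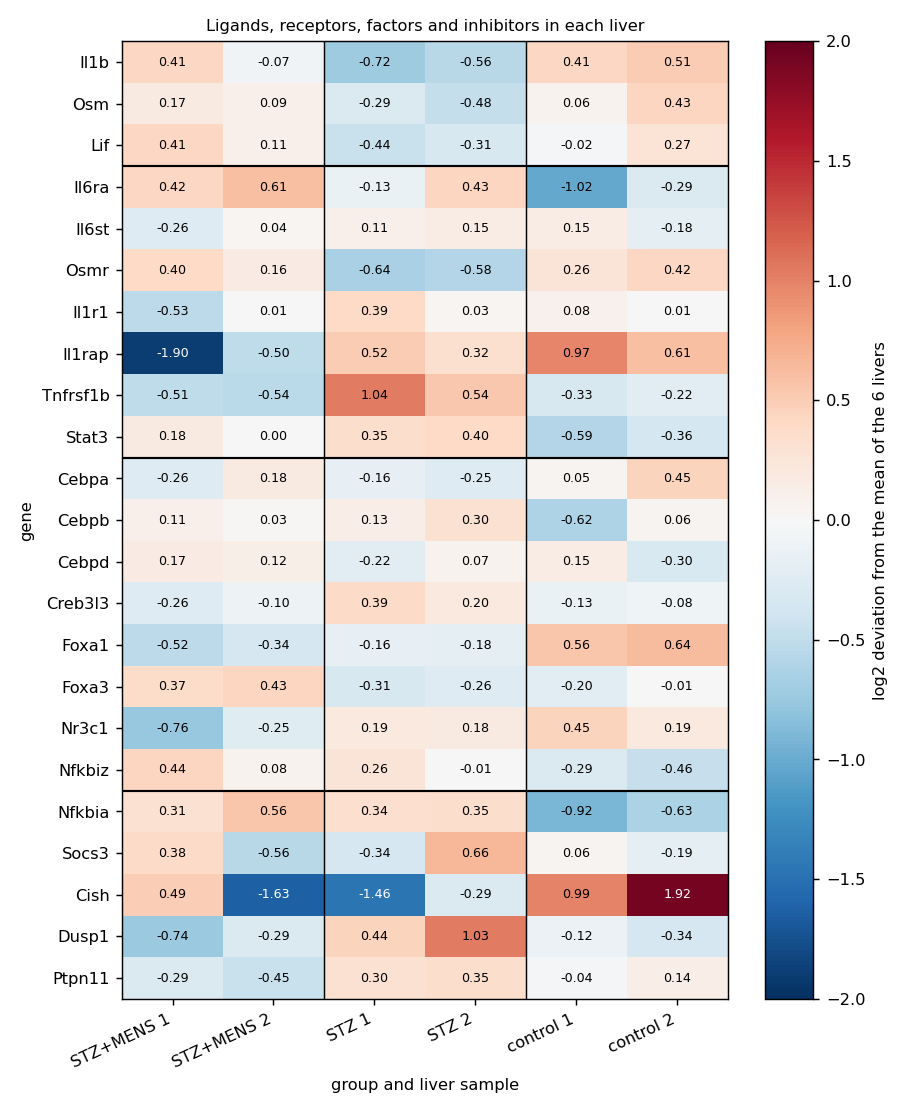
Deviation of each gene from its mean over the 6 livers, in log2 units, for cytokine ligands, then receptors with Stat3, then transcription factors, then inhibitors, with columns for the STZ+MENS, STZ and control livers. Il1b and Osmr are lowest in both STZ livers, and Stat3 and Nfkbia are lowest in both control livers.

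Of 26 clearance receptors and partners, 1 was higher and 2 lower at unadjusted p under 0.05 for STZ against control, 1 higher and 1 lower for STZ+MENS against STZ, and none passed adjustment. In either direction, 17.0% and 25.4% of all genes did so. Bmp1, a metalloproteinase that processes matrix proteins, differed by -0.38 ± 0.15 between STZ and control (limma adjusted p = 0.284) and by 0.69 ± 0.15 between STZ+MENS and STZ (limma adjusted p = 0.072). Fcgr1 and Fcgr2b are Fc receptors, which also bind pentraxins. Fcgr1 was dim, at 6.67 and 7.20 in STZ+MENS livers, 7.54 and 6.85 in STZ livers and 8.23 and 8.41 in control livers, and no fold is given for it. Fcgr2b differed by -0.83 ± 0.30 between STZ+MENS and STZ (limma adjusted p = 0.158). Lrp2, an endocytic receptor that takes up lipocalin 2 in the kidney, was dim at 7.46 to 8.29.

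Lcn2 and Orm1 are also known to respond to glucocorticoids, and the other 15 listed glucocorticoid targets were counted beside them. This list was chosen with earlier results of these data known, so its counts are not independent of that choice. At unadjusted p under 0.05, 7 of the 15 were higher and 0 lower for STZ against control, with a median of 0.66, where 8.48% of all genes were higher and 8.49% lower with a median of -0.02. The counts were 2 higher and 6 lower for STZ+MENS against STZ, with a median of -0.38, where 12.6% and 12.8% of all genes were, with a median of 0.06. Against control, STZ+MENS gave 6 higher and 2 lower with a median of 0.23, where 8.82% and 9.18% of all genes were, with a median of 0.02, and none of the 15 passed adjustment in any comparison. Tat, tyrosine aminotransferase, was 16.61 and 16.91 in STZ+MENS livers, 18.19 and 17.68 in STZ livers and 18.22 and 17.88 in control livers. Both STZ+MENS livers lay below the other 4, by -1.17 ± 0.23 from STZ (limma adjusted p = 0.0663). Cdkn1a, a cell cycle inhibitor that many stress signals induce, differed by 4.42 ± 0.58 between STZ and control (limma adjusted p = 0.0749). Mt1 and Mt2, described above, are on this list too. With Cdkn1a, Fkbp5, Per1, Zbtb16 and Dusp1 they made up the 7 that were higher for STZ against control. In that comparison Lcn2 differed by 1.34 and Orm1 by -0.26. The part of glucocorticoids in the Lcn2 and Orm1 values was not tested, and glucocorticoid levels were not measured here.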

How the data were processed

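Total RNA of 6 mouse liver samples was labelled with Cy5 and measured on 12 single-colour arrays, 2 per sample, per the labels' protocols. The deposited values are linear probe intensities, already background-subtracted and with nearly equal distributions on every array; how the authors did this is not given in the sources used here, and the submitters' processing notes name limma 3.30.7 with no step attached. The values used were log2(intensity + 50), with intensities below 0 taken as 0. Probes were named from the platform annotation, updated through RefSeq (GRCm38.p6): of 26423 probes, 20377 had 1 symbol, 0 several and 6046 none. The brightest probe stood for each of 17742 genes. Fga, Fetub, Il6ra, Tnfrsf1b, Il1rap and Fcgr2b had further probes, whose values are not described here. Each sample entered as the mean of its 2 arrays, and a mean per group was fitted with limma 3.58.1 (lmFit, eBayes) in R 4.3.3, with two-sided tests and Benjamini-Hochberg adjustment over all genes, after the code was tested on simulated data. The number of liver samples limits the precision. Alternatives varied the offset, scaling, dim-gene filter, probe choice, arrays, samples in the fit, variance model and replicate block. The acute-phase genes and all gene lists were chosen with earlier results of these data known. Other genes were named by role, plus up to 3 per list with the smallest p in STZ against control and in STZ+MENS against STZ. Errors of differences are SEs.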

Additional observations from a re-analysis of the deposited data

Results flagged for a closer look

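Of 27 sets of 4 arrays (9 genes in 3 groups), 2 had an array far from the other 3, both for Hp. The rule used flags about 1 in 20 sets of 4 independent values by chance. The 4 arrays of a set here were 2 from each of 2 livers and not independent, so that rate does not hold for them. In STZ+MENS livers, 1 array read 17.74 and the other 3 read 18.02, 18.03 and 18.03, so that the gap took 0.971 of the range. In STZ livers, 1 array read 17.91 and the others 17.75, 17.76 and 17.76, a gap of 0.928 of the range. Both ranges are within 0.29 on the log2 scale.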

How the results depend on the processing

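With 2 livers per group and 3 residual degrees of freedom, the spread between livers limits every statement above. Over 519 alternatives of the 27 differences of the acute-phase genes, 495 kept their direction and side of the threshold and 22 changed sign. The other 2 moved past the threshold, Cp (0.78) and Orm1 (-1.27), as given above. The alternatives were not all separate fits. Leaving out a liver of the group not compared gave the same result as fitting only the groups compared. Making the array distributions equal again returned nearly the reported values, so the number of unchanged alternatives overstates the stability. The causes of the changes were not tested.

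Counts of genes past the adjusted threshold are given in the order STZ against control, STZ+MENS against STZ, STZ+MENS against control and the F test, and were 1, 0, 1 and 1 as reported. An offset of 200 gave 0 in all 4. The liver as a random block over 12 arrays gave 1204, 3079, 1336 and 3442. That fit used a single array correlation of 0.48 for all genes, so it understated the error of genes whose arrays agreed more closely. Array 1 alone gave 4, 0, 3 and 2, and array 2 alone 0, 30, 0 and 0. Fitting only the groups compared gave 181, 0 and 2. Leaving out a liver gave 0 to 181, 0 to 1759, 0 to 12 and 0 to 902, and unadjusted counts of 1812 to 3506, 2389 to 5167 and 1803 to 3719.

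Of the 9 acute-phase genes, those at unadjusted p under 0.05 numbered 0, 1 and 1 as reported, and 0 to 2, 0 to 4 and 0 to 3 with a liver left out. For STZ against control they numbered 2 with an offset of 200, 1 with the random block and 1 with a variance trend, where 3040, 3831 and 3012 of all genes did so. For STZ+MENS against STZ they numbered 2 with probes averaged and 2 with the random block, where 4429 and 5557 genes did so, and 0 with an offset of 16, with array 2 alone and with only the groups compared, where 4389, 3874 and 3938 did. For STZ+MENS against control they numbered 2 with an offset of 200, with probes averaged and with a variance trend, where 3362, 3205 and 3138 genes did so. Called genes numbered 0 to 1 for STZ+MENS against STZ with a liver left out, and 1 for STZ+MENS against control with the random block.

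Sign changes under other settings were 0.06 for Cp with probes averaged and 0.28 with its dimmer probe (STZ against control), 0.07 for Itih4 with array 2 alone (STZ against control), 0.05 for Crp with array 1 alone (STZ+MENS against STZ) and -0.04 for Hp with array 2 alone (STZ+MENS against control). With a liver left out, STZ against control ranged from -0.64 to 0.11 for Orm1, -0.37 to 0.20 for Hpx and -0.05 to 0.03 for Itih4. STZ+MENS against STZ ranged from -0.03 to 0.48 for Saa4, -0.13 to 0.08 for Crp, -0.15 to 0.78 for Cp and -0.08 to 0.25 for Itih4. STZ+MENS against control ranged from -1.19 to 0.58 for Lcn2, -0.27 to 0.01 for Saa4, -0.03 to 0.11 for Hp, -0.29 to 0.63 for Cp and -0.08 to 0.24 for Itih4. Where a group was left with 1 liver, that liver was assumed to vary like the others.

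The source names number the samples of each group 1 and 2, while the titles use other numbers, which only the STZ+MENS and control samples share. With the source names' number as a replicate block, 0 of the 9 had an unadjusted p under 0.05 for STZ+MENS against STZ, where 4020 genes did, and the F test called 0 genes. Deviations of same-numbered samples correlated across genes at -0.031 between STZ+MENS and control, the pairing that titles and source names share, and at -0.07 between STZ+MENS and STZ and 0.005 between STZ and control, where only the source names give a number. The numbers were not taken to pair the samples. The block moved no called gene count between pairs of groups.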
